A study of Homo sapiens with 4 samples.

Results

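The genes described here are 10 negative feedback regulators and early targets of the ERK MAP kinase pathway: the phosphatases DUSP2, DUSP4, DUSP5 and DUSP6, the Sprouty genes SPRY1 and SPRY2, the Sprouty-related genes SPRED1 and SPRED2, and the transcription factors EGR1 and EGR2. They were chosen by gene symbol. The platform annotation listed 12 probes for 9 of them among 31095 probes, and 6 of the 10 genes (DUSP2, DUSP4, DUSP6, SPRY2, SPRED1 and EGR1), on 7 probes, had a value on all 4 arrays. This compares with 13446 genes measured on all 4 arrays in the whole data set. EGR2 had no probe listed by name and was not analysed here.

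RC-K8 is an established human line from diffuse large B-cell lymphoma in which interleukin-21 (IL-21) triggers apoptosis, and RC-K8-R is 1 derivative of it, obtained by exposure to rising IL-21 over 10 weeks and resistant to the cytokine. The 4 groups were RC-K8-R given 100 ng/mL IL-21 for 6 h, RC-K8-R left untreated, RC-K8 given the same IL-21 treatment, and RC-K8 left untreated, each represented by 1 two-colour Agilent array. Lymphoma cDNA was labelled with Cy5 and hybridised with Cy3-labelled cDNA of 1 shared human reference RNA. Without replicates there is no estimate of the spread between cultures, so no difference was tested and no p-value is given; whether untreated RC-K8-R was still kept in IL-21 is not given in the sources used here.

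ERK is the last kinase of the RAS, RAF and MEK cascade, which B cells switch on through the antigen receptor and through growth factor and cytokine receptors. Active ERK induces EGR1 and EGR2, zinc finger transcription factors of the immediate early class, and it also induces its own inhibitors. The DUSP phosphatases remove phosphate from MAP kinases, Sprouty proteins restrain the signal between receptor and RAF, and SPRED proteins bring the RAS inhibitor neurofibromin to the membrane. The RNA level of these genes is therefore widely used as a readout of ERK activity, although it does not measure ERK itself.

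Upstream sequences of the 3 genes whose differences were largest, DUSP2, DUSP6 and EGR1, are shown. Letters matching sites of early response factors were found for 2 of them and for other genes of the group, named below. They are the 250 bases before the RefSeq transcription start on GRCh38.p14, read 5′ to 3′ on the gene's strand: DUSP2 at chr2:96145441-96145690 (minus strand), DUSP6 at chr12:89352502-89352751 (minus strand) and EGR1 at chr5:138465229-138465478 (plus strand). Capitals mark matches, on either strand, to the SRF CArG box, the GAS site of STAT factors (TTCNNNGAA), an ETS site (CCGGAA), the EGR site (GCGNGGGCG) or the AP-1 site (TGANTCA).
DUSP2: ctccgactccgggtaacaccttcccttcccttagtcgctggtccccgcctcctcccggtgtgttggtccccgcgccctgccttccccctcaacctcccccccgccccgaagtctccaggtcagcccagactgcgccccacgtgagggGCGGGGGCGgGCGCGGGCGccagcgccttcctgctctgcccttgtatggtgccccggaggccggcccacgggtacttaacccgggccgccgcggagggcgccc
DUSP6: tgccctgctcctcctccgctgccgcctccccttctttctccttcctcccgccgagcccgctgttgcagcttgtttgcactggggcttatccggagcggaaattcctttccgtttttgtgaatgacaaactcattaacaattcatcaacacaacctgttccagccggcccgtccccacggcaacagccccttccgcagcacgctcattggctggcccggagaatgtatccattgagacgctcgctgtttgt
EGR1: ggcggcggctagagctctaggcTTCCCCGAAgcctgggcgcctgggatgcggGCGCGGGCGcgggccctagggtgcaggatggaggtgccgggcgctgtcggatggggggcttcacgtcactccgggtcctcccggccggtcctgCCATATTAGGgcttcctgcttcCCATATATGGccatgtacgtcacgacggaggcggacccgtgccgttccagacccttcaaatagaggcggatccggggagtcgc

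The EGR1 window held 2 CArG boxes, starting 105 and 83 bases before the start, a GAS match at 228 bases and an EGR match at 198 bases before it. The DUSP2 window held 2 EGR matches that do not overlap, at 103 and 93 bases before the start, and the DUSP6 window held none of these motifs. Of 35116 annotated upstream windows of the same length, 1.16% held a CArG box, 6.57% a GAS match, 14.5% an ETS match, 8.41% an EGR match and 6.57% an AP-1 match. Matching letters describe a sequence and do not show that a factor bound there. RefSeq windows were matched for 8 of the 10 genes. Matches were not confined to genes with large differences. A window of SPRY2, whose IL-21 differences were -0.07 in RC-K8-R and -0.10 in RC-K8, held 2 EGR matches and an ETS match. A window of SPRY1 held a GAS, an ETS and an EGR match, and a window of EGR2 a CArG box. The windows of SPRED1 and SPRED2 held none of the motifs.

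Values are centred log2 ratios, that is, log2 of sample over reference RNA after each array's median was set to 0, so a positive value means more of the transcript in the lymphoma line than in the reference. Each ratio belongs to its own probe, and ratios were not compared between genes. On this scale DUSP2 was above the reference RNA on every array and each other gene with a value lay below it. Of 8 B cell markers measured, 6 were above the reference on each array, with medians of 2.07 in treated and 1.71 in untreated RC-K8-R, and of 1.18 in treated and 0.80 in untreated RC-K8. Of 4 hepatocyte and 5 epithelial markers, none was above it on any array. Other lists were mixed. For RC-K8, 3 of 4 measured myeloid markers exceeded the reference with IL-21 (median 0.265), and 3 without it (median 0.277). For RC-K8-R, 0 of the 4 did so with IL-21 (median -0.583), and 1 without it (median -0.582). Of 4 measured fibroblast markers, 1 exceeded the reference, on the untreated RC-K8 array only. Of 4 measured T and NK cell markers, 1 exceeded it on each array.

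**Figure D1:**
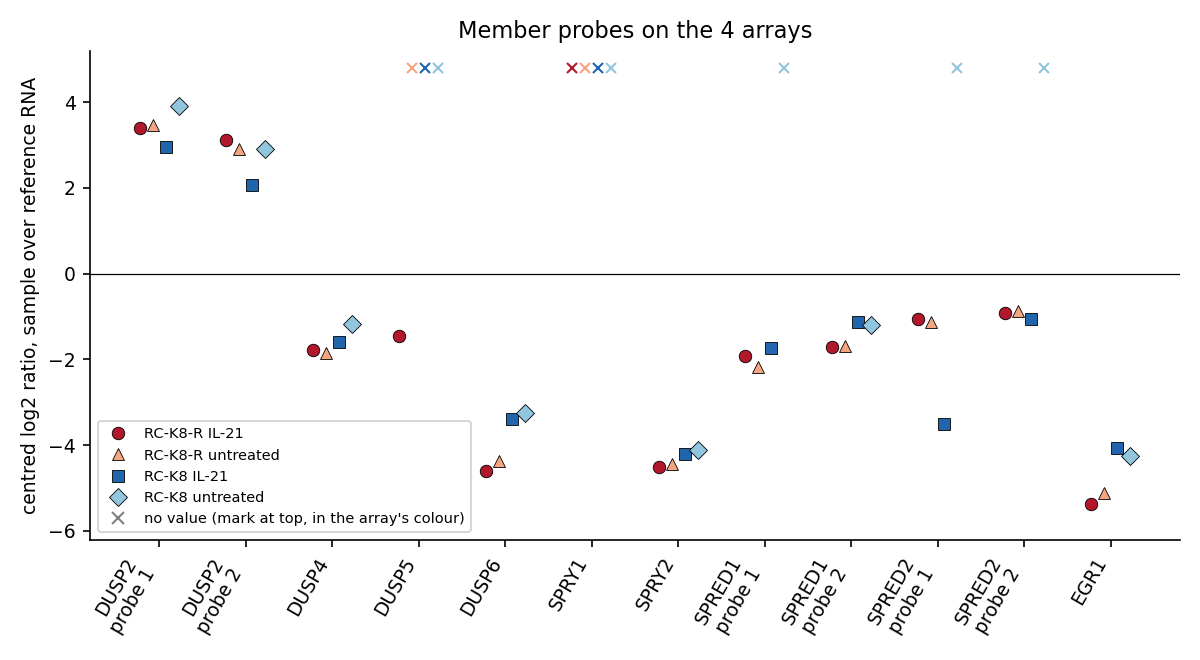
Centred log2 ratio of sample over reference RNA (vertical axis) for each of the 12 probes (horizontal axis) on the 4 arrays, 1 point per array; crosses at the top mark arrays on which a probe had no value. DUSP2 lies above 0 on all arrays and is lowest in treated RC-K8 on both of its probes, while DUSP6, SPRY2 and EGR1 lie below -3 on all arrays.

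DUSP2, also called PAC1, is a nuclear MAP kinase phosphatase first found in activated lymphocytes, and it was the gene of the group with the largest IL-21 difference. Probe A_23_P108842 gave 3.41 in treated RC-K8-R, against 3.46 in untreated RC-K8-R; in RC-K8 it gave 2.95 with IL-21, against 3.92 in untreated RC-K8. Probe A_24_P37409 gave 3.13 in treated RC-K8-R, against 2.91 in untreated RC-K8-R; in RC-K8 it gave 2.06 with IL-21, against 2.91 in untreated RC-K8. On both probes treated RC-K8 was the lowest of the 4 arrays.

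In RC-K8-R the log2 difference of IL-21 against untreated was -0.05 on probe A_23_P108842 and 0.21 on A_24_P37409, with a median of 0.08 (SD between probes 0.19), so no direction is read. In RC-K8 it was -0.97 and -0.85 on the same probes. Their median was -0.91 (SD between probes 0.09), or 1.88-fold lower with IL-21, and 2.1% of the 13446 genes had a lower value. The response of RC-K8-R minus that of RC-K8 was 0.99 (SD between probes 0.10), positive on both probes at 0.92 and 1.06. DUSP2 stayed just under the 2-fold threshold in RC-K8, and it passed it, at -1.07, when the arrays were scaled to equal spread.

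Between the lines, DUSP2 depended on the treatment and on the scaling. Untreated RC-K8-R against untreated RC-K8 gave -0.46 and 0.00 on the 2 probes, a median of -0.23 that became -0.895 after quantile normalization. With IL-21, RC-K8-R against RC-K8 gave 0.46 and 1.06, a median of 0.76 that turned to -0.05 after quantile normalization. The direction with IL-21 thus held on both probes but not under every scaling.

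DUSP4, another nuclear phosphatase of ERK and other MAP kinases, had 1 probe and ratios below the reference. It was at -1.79 in treated RC-K8-R, against -1.86 in untreated RC-K8-R, and at -1.58 in treated RC-K8, against -1.18 in untreated RC-K8. Untreated RC-K8 was thus the highest array. With IL-21 the log2 difference of RC-K8-R was 0.07 and that of RC-K8 -0.41, a negative RC-K8 value as for DUSP2 but a smaller one, and the difference of responses was 0.47.

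DUSP6, a cytoplasmic phosphatase selective for ERK and one of the most used ERK target genes, was far below the reference on every array. It was at -4.59 in treated and -4.38 in untreated RC-K8-R, and at -3.40 in treated and -3.24 in untreated RC-K8. Both RC-K8-R arrays were lower than both RC-K8 arrays. The IL-21 difference was -0.21 in RC-K8-R, and -0.15 in RC-K8, where it turned positive (0.03) after quantile normalization.

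DUSP5, a nuclear phosphatase selective for ERK, was read out by 1 probe in treated RC-K8-R only, at -1.44. No difference could be formed, and a missing value gives no level for the other 3 arrays.

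SPRY2, which blocks growth factor signalling to RAS and RAF, gave 4 similar values. It was at -4.50 in treated and -4.43 in untreated RC-K8-R, and at -4.21 in treated and -4.11 in untreated RC-K8. IL-21 gave differences of -0.07 for RC-K8-R and of -0.10 for RC-K8, and each changed sign under some scalings. The probe of SPRY1, a relative with a like role, had no value on any array.

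SPRED1, a RAS pathway inhibitor that works with neurofibromin, had 1 of its 2 probes on all arrays. Probe A_24_P107859 gave -1.70 in treated and -1.68 in untreated RC-K8-R; RC-K8 had -1.12 in treated and -1.19 in untreated cells. Both RC-K8-R arrays were lower than both RC-K8 arrays, and on this probe, as centred here, the IL-21 difference was -0.02 in RC-K8-R and 0.07 in RC-K8. The other probe, A_23_P54460, had no value in untreated RC-K8; it gave -1.93 with IL-21 and -2.18 untreated in RC-K8-R, a difference of 0.26, and -1.73 with IL-21 in RC-K8.

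SPRED2, its close relative, had no value in untreated RC-K8 on either probe. On A_24_P315535 it was at -1.05 in treated and -1.14 in untreated RC-K8-R, against -3.50 in treated RC-K8. On A_32_P225854 it was at -0.93 in treated and -0.88 in untreated RC-K8-R, against -1.06 in treated RC-K8. The probes agreed that IL-21 made little difference in RC-K8-R, at 0.08 and -0.05, but gave 2.45 and 0.13 for RC-K8-R against RC-K8 with IL-21, so no size is read for that difference.

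EGR1, the immediate early factor that ERK and SRF with its ETS partners induce, was below the reference throughout. It was at -5.38 in treated and -5.10 in untreated RC-K8-R, and at -4.07 in treated and -4.26 in untreated RC-K8. Both RC-K8-R arrays were lower than both RC-K8 arrays. IL-21 gave a difference of -0.28 for RC-K8-R and of 0.19 for RC-K8, and the difference of responses was -0.46, opposite in sign to that of DUSP2.

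Set together, no measured gene of the group was 2-fold higher or lower with IL-21 in either line. Over all genes, 0.342% passed 2-fold upward and 0.602% downward in RC-K8-R, and 1.44% upward and 1.66% downward in RC-K8. The median difference of the 6 genes was -0.05 in RC-K8-R, against 0.00 over all genes, and -0.13 in RC-K8, against -0.04 over all genes; the RC-K8-R median took the other sign with equal spread per array (0.005), and the RC-K8 median with quantile normalization (0.08) and loess (0.06). For the difference of responses none was at 2-fold (background 2.47% positive and 2.3% negative), and the median was -0.02, against 0.02 over all genes. A count of 0 among 6 genes is near what these backgrounds give.

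**Figure D2:**
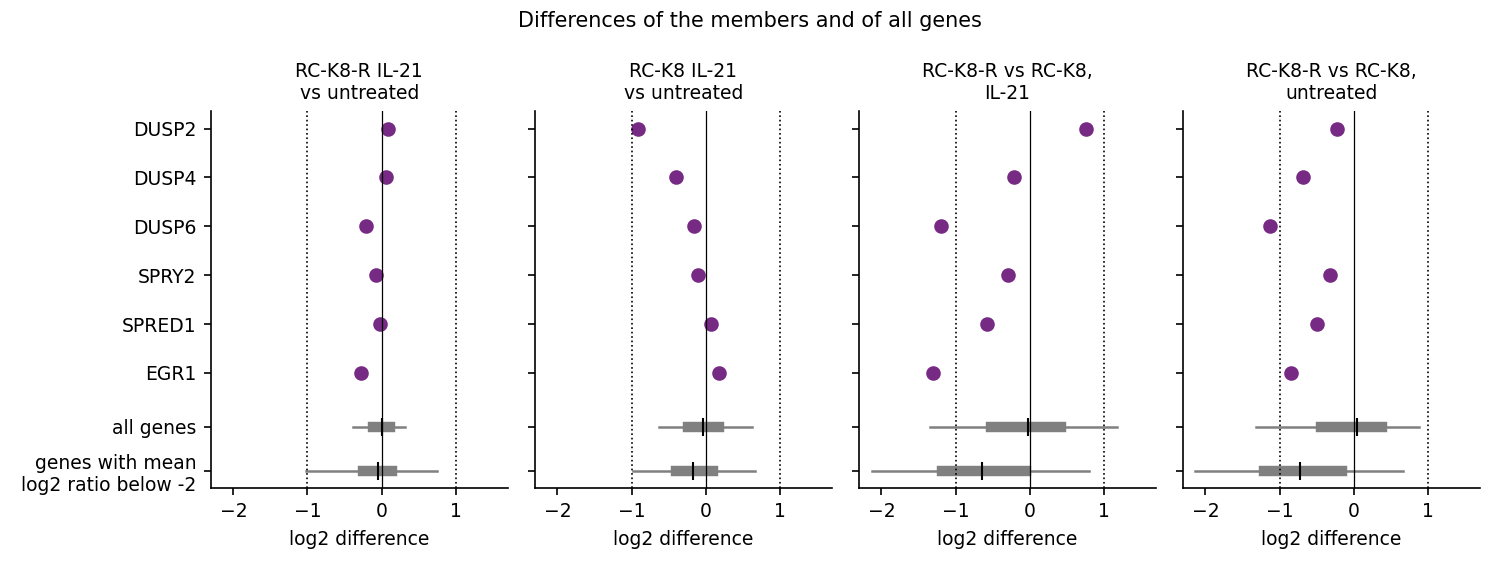
Log2 difference (horizontal axis) of the 6 genes measured on all arrays in each of 4 comparisons, with 1 point per gene; below them the thick bars span the middle 50% of genes, thin lines the range from percentile 5 to percentile 95 and ticks the median, for all 13446 genes and for the 1161 genes with a mean log2 ratio below -2. Dotted lines mark 2-fold. DUSP2 at -0.91 is the lowest point of the RC-K8 response, and the line differences of DUSP6 and EGR1 lie within the range of genes with low ratios.

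Between the untreated lines all 6 genes were lower in RC-K8-R as centred here, although SPRY2 and EGR1 took the other sign under another scaling, with a median log2 difference of -0.59, against 0.05 over all genes. The differences were -1.13 for DUSP6, -0.84 for EGR1, -0.68 for DUSP4, -0.49 for SPRED1, -0.32 for SPRY2 and -0.23 for DUSP2. DUSP6, 2.19-fold lower, was the only 1 of the 6 at 2-fold, where 10.2% of all genes lay at least that threshold below 0 and 3.35% above it. With IL-21, all but DUSP2 were lower in RC-K8-R, although DUSP4 and SPRY2 took the other sign under another scaling, and the median was -0.44, against -0.03 over all genes. EGR1 (-1.31, 2.48-fold lower) and DUSP6 (2.29-fold lower) were then at 2-fold, against a background of 10.3% lower and 7.47% higher. The comparison of untreated lines and that of treated lines share no array, but each shares an array with each IL-21 comparison.

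The size of these line differences moved with the ratio range of the arrays. The SD of the log2 ratios was 1.54 for treated and 1.5 for untreated RC-K8-R, against 1.30 for treated and 1.26 for untreated RC-K8, and genes with low ratios were lower in RC-K8-R in general. The 1161 genes with a mean log2 ratio below -2, among them DUSP6, SPRY2 and EGR1, had a median of -0.72 between untreated lines and -0.65 between treated lines. Of them, 34.6% were 2-fold lower in untreated and 32% in treated RC-K8-R. With equal spread per array, quantile normalization or a loess correction on the mean ratio, neither DUSP6 nor EGR1 was at 2-fold. DUSP6 was then between -0.37 and -0.64, EGR1 between 0.03 and -0.65, and SPRY2 turned positive, up to 0.50. Markers of other cell types were also lower on the RC-K8-R arrays. Of 7 T and NK cell markers, the 4 measured had a median of -3.06 in treated and -2.86 in untreated RC-K8-R, against -1.57 in treated and -1.23 in untreated RC-K8. They ran from -5.0 to 0.06 in treated and from -5.22 to 0.17 in untreated RC-K8-R, and from -3.58 to 0.62 in treated and from -3.05 to 0.69 in untreated RC-K8. Their part in the line differences was not tested.

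**Figure D3:**
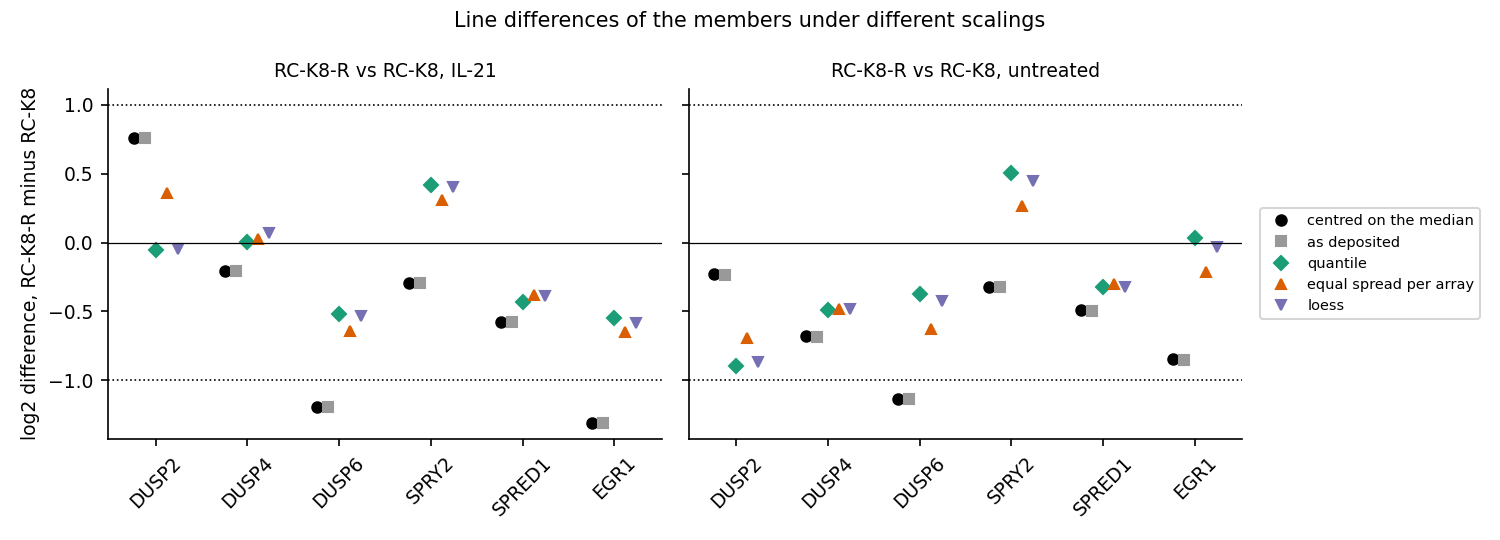
Log2 difference of RC-K8-R minus RC-K8 (vertical axis) for the 6 genes under the scaling used here and 4 others, with IL-21 on the left and untreated on the right; 1 point per gene and scaling, dotted lines at 2-fold. DUSP6 and SPRED1 stay below 0 under each scaling in both panels, while SPRY2 changes sign in both, DUSP2 and DUSP4 change sign with IL-21 and EGR1 changes sign untreated.

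The wider pathway was read from lists of 73 other genes, of which 55 were measured on all arrays. In RC-K8-R with IL-21 none of the 55 was at 2-fold, and their differences ran from -0.35 to 0.48. Over all genes the shares in RC-K8-R were 0.342% higher and 0.602% lower. In RC-K8 with IL-21, 4 of the 55 were at least 2-fold higher, against 1.44% of all genes. At least 2-fold lower were 2 of the 55, against 1.66%. The counts include MYC (higher) and NR4A1 (lower), whose probes disagreed, as described below.

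Of the ERK cascade, 15 of 26 genes were measured, and none was at 2-fold with IL-21 in either line. The list's median was 0.05 in RC-K8-R and -0.12 in RC-K8. The largest response in RC-K8 was that of RASGRP3, a RAS exchange factor that links the antigen receptor to RAS in B cells. It was at 7.09 in treated RC-K8-R, against 6.60 in untreated RC-K8-R, and at 5.0 in treated RC-K8, against 5.73 in untreated RC-K8. The response was 0.48 for RC-K8-R and -0.72 for RC-K8, and their difference was 1.21, which became 0.47 after the loess correction.

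Several cascade genes were higher in RC-K8-R. With IL-21 these were RASGRP3 (2.08, or 0.78 after loess), the ERK1 gene MAPK3 (1.23), the RAF family kinase ARAF (1.05) and the RAS exchange factor SOS1 (1.01), 4 of 15, against 7.47% of all genes; none was 2-fold lower. Without IL-21, ARAF alone was at 2-fold higher (1.06), with SOS1 at 0.86 and MAPK3 at 0.76. The list's median was 0.68 between treated and 0.36 between untreated lines. The medians of the 6 genes described above, EGR1 among them, and of the cascade genes lay on opposite sides of 0 between the lines. With IL-21 they were -0.44 for the 6 genes and 0.68 for the cascade. Over the other scalings and probe rules they ran from -0.44 to -0.18 and from 0.52 to 0.68. Between untreated lines they ran from -0.59 to -0.35 and from 0.15 to 0.50. Other feedback genes did not all lie on the lower side. The other MAP kinase phosphatases had medians of 0.06 with IL-21 (-0.01 to 0.21 over the settings) and 0.32 untreated (0.05 to 0.32). The 2 other Sprouty genes measured had a median of 0.135 with IL-21 and -0.57 untreated.

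Of the other MAP kinase phosphatases, 7 of 9 were measured, and none was at 2-fold with IL-21 as the median over probes. The 4 probes of DUSP16 disagreed, so no direction is read. They ran from -0.72 to 0.92 in RC-K8-R and from -1.74 to 0.43 in RC-K8, with medians of 0.01 and -0.12. Read from the probe with the highest mean ratio, DUSP16 was at -1.74 in RC-K8. In RC-K8 the highest was DUSP22 (0.62) and the lowest DUSP9 (-0.36). DUSP14 was 2-fold lower in RC-K8-R without IL-21 (-1.34) and with it (-1.15). So was DUSP9, a cytoplasmic ERK phosphatase (-1.18 without IL-21 and -1.17 with it). Those 2 of 7 stand beside 10.2% of all genes 2-fold lower without IL-21 and 10.3% with it. In both comparisons 4 of the 7 lay above 0. Among the other Sprouty and Spred genes, SPRY4 had an IL-21 difference of 0.14 in RC-K8-R and -0.75 in RC-K8, and SPRY3 of 0.24 in RC-K8-R and -0.28 in RC-K8.

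Among EGR partners and other immediate early genes, 18 of 22 were measured. In RC-K8 with IL-21, the stress-induced factor ATF3 was 2-fold higher (1.06, from 2 probes at 0.85 and 1.27). The orphan nuclear receptor gene NR4A1, an antigen receptor target, was at -1.21 on the probe with a value on all arrays and at 0.37 on another, so no direction is read. IER3 was at -0.85, IER2 at -0.60 and FOSB at -0.48, whereas ZFP36 was at 0.94, KLF10 at 0.89 and JUN at 0.69. FOS, which like EGR1 is an SRF target, had a difference of -0.26 for RC-K8-R and of 0.09 for RC-K8. Its ratios were far below the reference, from -6.35 in treated RC-K8-R to -4.57 in treated RC-K8. The EGR1 response in RC-K8 moved from 0.18 to 0.46 over the settings, so no likeness of FOS and EGR1 is read. Of the 18 genes, 12 lay above 0 and 6 below it in RC-K8-R, and 8 above and 10 below in RC-K8.

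Between the lines FOS was at -1.78 with IL-21 and -1.43 untreated for RC-K8-R against RC-K8, lower than EGR1 at -1.31 and -0.84. After the loess correction FOS was at -1.0 with IL-21 and -0.55 untreated. JUNB was higher in RC-K8-R on the probe with a value on all arrays (1.31 untreated and 1.35 with IL-21), but another probe gave -0.21 untreated. FOSL2 was at -1.52 untreated, from 3 probes between -1.88 and 0.26. The EGR corepressors NAB1 and NAB2 and the factor SRF were not at 2-fold in any comparison as medians over probes. The 2 probes of NAB2 disagreed between the lines, at -1.17 and 0.30 with IL-21 and at -1.54 and 0.50 untreated, so no direction is read.

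The list named other ERK output genes, 13 of 13 measured, held the largest responses of the 55 genes in RC-K8. Whether ERK had a part in these responses was not tested. MYC was 3.02 higher as the median of 3 probes, which ran from -0.08 to 3.74; the pseudokinase gene TRIB1 was 1.51 higher on 2 probes (1.49 and 1.52) and the ETS factor ELK3 1.04 higher on 2 probes (0.99 and 1.10). The ETS factor ETV1 was at -1.56 on 1 probe. In RC-K8-R these were at 0.07 for MYC, -0.03 for TRIB1, -0.12 for ELK3 and -0.22 for ETV1. The ERK-induced ETS genes ETV4 and ETV5, which often move with DUSP6 and SPRY4, had differences of 0.17 and 0.05 in RC-K8-R and of 0.08 and -0.03 in RC-K8; CCND1 had 0.02 in RC-K8-R and -0.15 in RC-K8.

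Between the lines with IL-21, MYC was at -2.64 for RC-K8-R against RC-K8 (3 probes between -3.54 and -1.03), TRIB1 at -1.16 (probes at -1.42 and -0.91) and the ETS factor ELK1, a partner of SRF, at 1.21 on 1 probe. Without IL-21 they were at -0.47 for MYC, whose probes ran from -1.18 to 0.99, at 0.37 for TRIB1 and at 0.92 for ELK1. ETV1 had the lowest line difference of the 55 genes without IL-21, at -2.05, and it was at -0.72 with IL-21, which became 0.01 after quantile normalization. Its treated and untreated RC-K8-R ratios were -4.73 and -4.50, against -4.01 in treated and -2.45 in untreated RC-K8, so untreated RC-K8 was the high array.

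**Figure D4:**
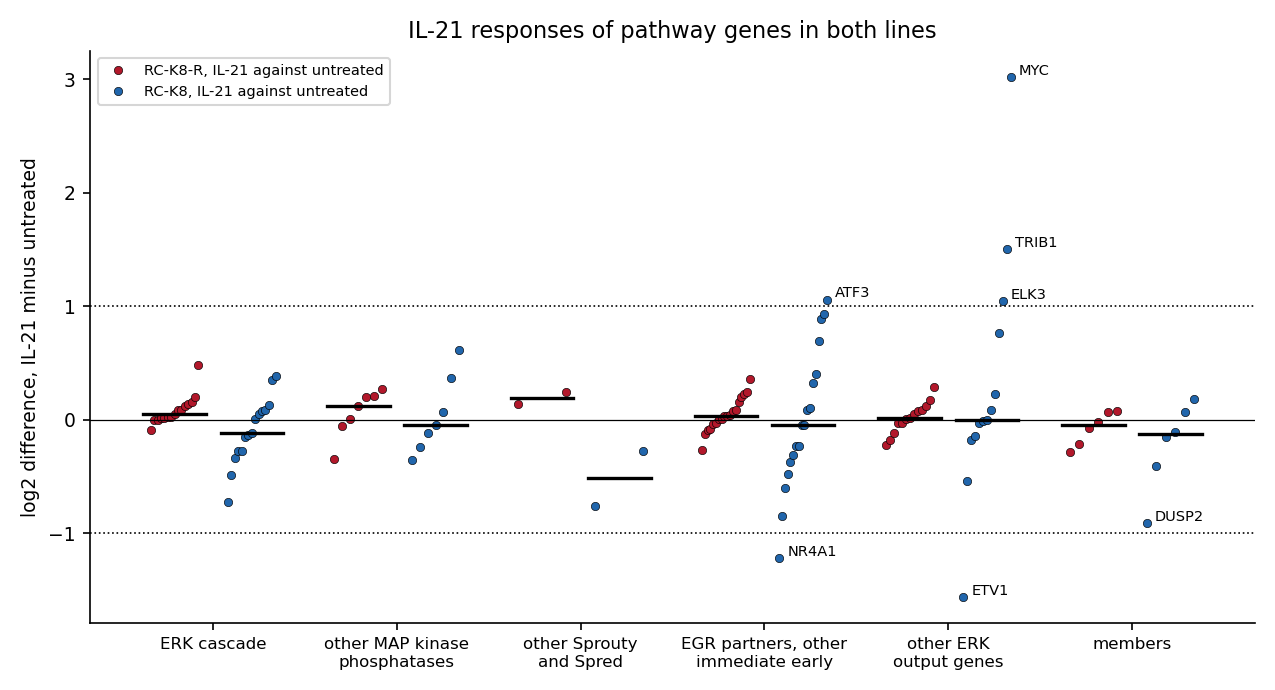
Log2 difference of IL-21 minus untreated (vertical axis) in RC-K8-R (red, left of each pair) and RC-K8 (blue, right of each pair) for the 55 other pathway genes by list and for the 6 genes described above; 1 point per gene, bars are list medians and dotted lines mark 2-fold. All RC-K8-R points lie between -0.35 and 0.48, while RC-K8 points run from -1.56 (ETV1) to 3.02 (MYC).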

How the data were processed

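The 4 arrays were compared, 1 per group, in 5 ways: treated minus untreated cells of RC-K8-R and of RC-K8, the first of these minus the second, and RC-K8-R minus RC-K8 at either treatment. Each deposited value is a log ratio, read here as log2 of sample (Cy5) over reference (Cy3) from the dyes in the labels. Log base, centring and direction are unstated in the deposited table, and the sources used here give no scanner or normalization; were the base e, folds would be larger and directions unchanged. The RC-K8-R arrays had deposited medians of -0.111 (treated) and -0.106 (untreated), the RC-K8 arrays of -0.123 (treated) and -0.107 (untreated). The lowest correlation between arrays, taken over probes measured on each of the 4, was 0.852.

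Of 31095 probes, 25570 had 1 gene symbol in the platform annotation, 28 had several and 5497 had none listed; 23260 had a value on all 4 arrays. Arrays were centred on their median over those probes, differences were taken per probe and summarised by the median over a gene's probes, and 2-fold was the threshold for counts (Python 3.11.15, pandas 2.3.3, statsmodels 0.14.6). The steps were tested on simulated data. The number of arrays limits the precision. The genes and lists were chosen with earlier results of these data known. All 10 genes were to be named, and of the other lists the genes at 2-fold and up to 4 more per list. The further genes named from the immediate early list, and DUSP16, were chosen after their values were seen. Alternatives were other scalings, probe summaries, probe filters and thresholds.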

Additional observations from a re-analysis of the deposited data

Results flagged for a closer look

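The IL-21 differences of the lines had opposite signs for 4 of the 6 genes. With 1 array per group the contrast was not tested. The share of all genes with opposite signs was not counted, so this count has no background. Over all genes the median IL-21 difference was 0.004 in RC-K8-R and -0.039 in RC-K8, and the RC-K8-R quartiles were -0.11 and 0.109. In RC-K8-R, DUSP2, DUSP4 and SPRED1 lay between these quartiles, so no opposite direction is read for them, while EGR1 lay below both. The response of RC-K8-R minus that of RC-K8 was 0.99 for DUSP2 (0.08 in RC-K8-R, -0.91 in RC-K8) and 0.47 for DUSP4 (0.07 in RC-K8-R, -0.41 in RC-K8). It was -0.46 for EGR1 (-0.28 in RC-K8-R, 0.19 in RC-K8) and -0.088 for SPRED1 (-0.02 in RC-K8-R, 0.07 in RC-K8). The RC-K8-R responses of DUSP2 and SPRED1 changed sign under other scalings, and each gene then had the same sign in both lines. Of the wider pathway genes at 2-fold in a response, the signs were also opposite for TRIB1 and ELK3. The difference of responses was -1.54 for TRIB1 (-0.03 in RC-K8-R, 1.51 in RC-K8). For ELK3 it was -1.16 (-0.12 in RC-K8-R, 1.04 in RC-K8). The RC-K8-R value of TRIB1 lay between the quartiles of all genes, and that of ELK3 lay just below the lower quartile. No opposite direction is read for either gene.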

How the results depend on the processing

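The counts of genes at the threshold moved with scaling and threshold. For RC-K8 with IL-21 the count lower was 0, and 1 (DUSP2) with equal spread per array or at 1.5-fold. For the untreated lines the count lower in RC-K8-R was 1, and 0 with quantile normalization, equal spread, loess or a 3-fold threshold. It was 3 of 6 at 1.5-fold, where 20.6% of all genes were lower. For the treated lines the count lower in RC-K8-R was 2, and 0 with quantile normalization, equal spread, loess or 3-fold; the count higher was 0, and 1 when probes needed a value only on the arrays compared (SPRED2) or at 1.5-fold (DUSP2). For the difference of responses the count positive was 0, and 1 with equal spread or at 1.5-fold (DUSP2). Over all genes, a 1.5-fold threshold gave 782 higher (5.82%) and 798 lower (5.93%) for RC-K8 with IL-21, and 3-fold gave 49 and 43. Between treated lines 18.0% of all genes were higher and 22.6% lower at 1.5-fold, and 8.1% were positive for the difference of responses. The DUSP2 response in RC-K8 stayed negative under the 7 other scalings and probe rules, from -1.07 to -0.78. Among the wider pathway genes, MYC took the other sign when each gene was read from the probe whose mean ratio was highest, at -0.08 in RC-K8 with IL-21 and 0.15 for the difference of responses, against medians over probes of 3.02 and -3.07. No paired analysis was possible because each group holds 1 array, so replicates could not be left out either. With single arrays, 1 probe for most genes and ratios far below the reference for DUSP6, SPRY2 and EGR1, small differences have no known error.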

Other observations

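Some pathway genes had values on the RC-K8-R arrays alone and so entered no comparison of the lines. MAP2K1, which encodes the ERK kinase MEK1, was at -0.19 in treated and -0.12 in untreated RC-K8-R. DUSP10, a phosphatase of the stress-activated MAP kinases, was at -1.24 in treated and -1.30 in untreated RC-K8-R on 1 of its probes. EGR4 had a value in treated RC-K8-R only, at -0.35, as DUSP5 did. DUSP1, the archetypal immediate early MAP kinase phosphatase, was at 0.31 in treated and 0.07 in untreated RC-K8-R and at -0.02 in treated RC-K8, and had no value in untreated RC-K8.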
